A study of Xenopus laevis with 8 samples.

Results

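The genes described here encode keratins, the proteins of desmosomes and proteins of the epidermal surface in Xenopus laevis. They were chosen by symbol: rows that begin with krt, itln, upk or dsg, with dsc or pkp and a digit, or that are dsp, ppl, evpl or jup, with identifiers that have no symbol looked up at NCBI. Among the 35649 genes counted, 100 rows matched, and the 55 with 10 or more counts over all samples are the members. They are 26 keratins, 2 other genes whose symbols begin with krt, 1 intelectin, 8 uroplakins, 4 desmosomal cadherins, 7 plakophilins and 7 rows of plaque proteins. X. laevis is allotetraploid, so that many genes exist as a pair of homeologs, marked L and S. Levels are CPM, counts scaled to the same library total after TMM normalization. They are not corrected for gene length, so the height of 2 genes is not compared.

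The study addressed how gene expression in gastrula explants responds to extra Pinhead or to its depletion. Pinhead is a secreted protein, and its gene is pnhd. Ectoderm explants at stage 11 were either untreated or expressed Flag-Pinhead, a tagged form of the protein, from 1.5 ng of injected RNA. Marginal zone explants, the equatorial tissue that forms mesoderm, are labelled stage 10.5 (stage 11 in the series text) and were either untreated or given PhSpMo, the MO oligonucleotide against Pinhead, at 40 ng per blastomere in 4-cell embryos. Each of the 4 groups has 2 samples. No group received a control injection, so an effect of injection cannot be told apart from either treatment, and since the labels name no clutch or culture, the p-values reflect how far these samples lie apart, and that spread may be a technical one.

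Total counts per sample ran from 12551618 to 19719311. Between the PhSpMo samples the mean chi-square over genes was 1.43, within the range seen between columns of one and the same sample elsewhere (1.29 to 1.46), while the controls gave 2.05 in marginal zone and 2.27 in ectoderm. They were therefore counted as 1 sample, and PhSpMo values carry no SD. Columns that share a PhSpMo sample name gave 2.38 and 2.44, so these columns may be crossed. Between the 2 names, columns with the same last digit gave 1.30 and 1.36. Summing the PhSpMo columns by last digit gave 3.41, above both control pairs. The PhSpMo samples as labelled may therefore each hold reads of both, and are not read as replicates. The Flag-Pinhead samples gave 11.9, a mean that includes pnhd.L, whose counts hold the injected RNA and differ widely between these samples. It was not worked out without that row, so it is not set against the other pairs. As a check of the labels, unscaled pnhd.L stood at 16.1 and 18.3 CPM in control ectoderm and at 31777 and 59876 CPM with Flag-Pinhead RNA, which includes the injected RNA, and at 93.7 and 89.2 CPM in control marginal zone and 58.8 and 55.0 CPM with PhSpMo. The summed unscaled level of the mesoderm markers was 32.8 and 34.9 CPM in control ectoderm, where 5 of 20 rows had no count, and 2410 and 2330 CPM in control marginal zone. The endoderm markers stood at 4.82 and 3.59 CPM and at 815 and 799 CPM.

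Keratins are the intermediate filament proteins of epithelia and form filaments from pairs of an acidic type I and a basic type II chain. KRT8 and KRT18 are the usual pair of simple epithelia, while the embryonic epidermis of Xenopus makes keratins of its own. Desmosomes anchor the filaments at the cell membrane: the cadherins desmoglein (dsg) and desmocollin (dsc) join neighbouring cells, plakoglobin (jup) and plakophilins (pkp) bind them inside the cell, and desmoplakin (dsp) links the plaque to keratin. Uroplakins (upk) are membrane proteins best known from the bladder surface of mammals, and intelectins (itln) are lectins secreted by the embryonic epidermis of Xenopus. In bulk explants, fewer cells of a type and less RNA per cell cannot be told apart.

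Many keratin rows had few or no counts at these stages. This does not show that the genes were silent, since the handling of shared reads is not given. Of 68 keratin rows 23 had no count in any sample and 42 fell under the minimum of 10. In the gene order of the RefSeq table (X. laevis v10.1), most keratins stood in runs of neighbours. A run from krt18.1.L to krt80.L held 15 keratin rows, of which 7 were kept, and its counterpart from krt18.1.S to krt80.S held 13, of which 4 were kept (krt18.S, krt8.S, krt7.S and krt80.S). The runs from krt17.L to krt24.L and from krt9.1.S to krt222.S held 16 and 10 rows, of which 3 each were kept, and both rows of a run from krt18.3.S to krt8.2.S were kept. Some symbols of the counts table are old: krt5.7.L is now krt7.L, and krt12.L is listed under krt12.5.S. The row krt5.1b is listed under srsf5a.L, which is named as a splicing factor and not as a keratin. The rows krt19, pkp3 and upk1b, named without L or S, each match 2 RefSeq genes. Not every row is therefore surely a separate gene.

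Summed over their members, keratins, uroplakins and plaque proteins were lower in marginal zone than in ectoderm. Unscaled keratin counts took 4399 and 4551 CPM in control ectoderm, 4540 and 3967 CPM in Flag-Pinhead ectoderm, 2079 and 2136 CPM in control marginal zone and 1591 and 1602 CPM with PhSpMo. Uroplakins took 2909 and 2956 CPM, 3134 and 2782 CPM, 1516 and 1535 CPM, and 1240 and 1256 CPM in the same order. Plaque proteins took 1190 and 1153 CPM, 1292 and 1190 CPM, 995 and 983 CPM, and 899 and 891 CPM. For these classes the marginal zone samples lay below all ectoderm samples and the PhSpMo samples below their controls. Of the Flag-Pinhead samples, replicate 1 was between the controls for keratins and above them for uroplakins in these unscaled sums. Replicate 2 was below both controls for each. Injected RNA takes up part of the Flag-Pinhead totals. The TMM factors were 0.923 and 0.928 with Flag-Pinhead RNA against 1.004 and 1.001 in control ectoderm. What lowered these factors was not tested. Scaling raises the Flag-Pinhead sums against those controls, so their positions are not read as differences. Plakophilins took 620 and 618 CPM in control ectoderm and 609 and 596 CPM in control marginal zone. Their unscaled sum in Flag-Pinhead ectoderm, where the injected RNA is part of the total, was 533 and 513 CPM.

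**Figure D1:**
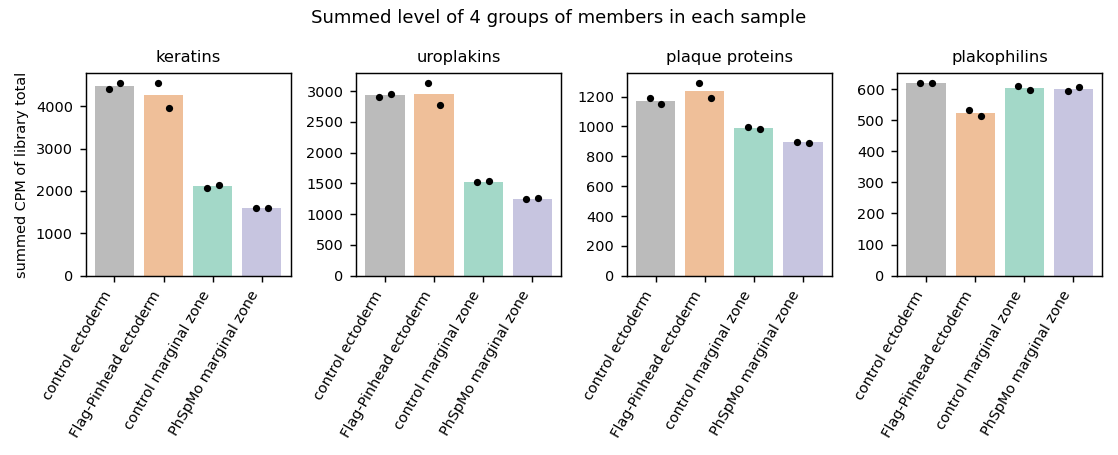
Summed CPM of the library total (y axis, from 0) of the keratins, uroplakins, plaque proteins and plakophilins in the 4 groups, with bars for group means and points for the 2 samples of each group. Keratins stand at 4399 and 4551 CPM in control ectoderm against 2079 and 2136 CPM in control marginal zone, and plakophilins at about the same level in these groups.

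The untreated tissues were compared first, since they give the starting levels of both treatments. Of the 55 members 48 passed the filter on low counts, and of these 27 stood lower in marginal zone and 11 higher (edgeR's quasi-likelihood test, Benjamini-Hochberg adjusted p under 0.05). Among all 22241 genes tested 26.3% were lower and 26.5% higher, 52.8% in all. By 2-fold or more, 17 members were lower and 2 higher, against 7.92% and 8.76% of all genes. The median log2 difference of the tested members was -0.56, against -0.003 over all genes. Tissue, stage label and experiment cannot be told apart here. With DESeq2 the members called higher numbered 6, and 4510 of all genes were called higher, where the reported fit gave 5889. Fewer members, and fewer of all genes, were also called higher without control ectoderm replicate 1 or without control marginal zone replicate 2.

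The keratins that were lower in the marginal zone were led by genes of embryonic epidermis. The type I gene krt.L, called krt70 in RefSeq, stood at 1265 and 1253 CPM in ectoderm and at 442 and 459 CPM in marginal zone, a log2 difference of -1.48 (SE 0.06, adjusted p = 3.26e-17, edgeR). The krt.S row stood at 85.2 and 88.2 CPM against 1.55 and 1.55 CPM. The type II gene krt7.S stood at 958 and 1035 CPM against 173 and 190 CPM, and its L copy krt5.7.L at 725 and 784 CPM against 260 and 265 CPM. The epidermal keratin krt12.L stood at 216 and 256 CPM against 33.6 and 33.8 CPM. In each of these the samples of the 2 tissues did not overlap, which was not counted over all genes.

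Rows of the krt8 and krt18 genes differed among themselves. Both copies of the type I gene krt18 were higher in the marginal zone, while a row named krt18 alone, which matches several RefSeq genes, was lower (12.4 and 11.8 CPM in ectoderm, 2.71 and 3.87 CPM in marginal zone). The L row krt18.L stood at 174 and 173 CPM against 109 and 115 CPM in ectoderm, and krt18.S at 94.2 and 98.1 CPM against 58.4 and 53.3 CPM. The type II gene krt8.1.L differed little, at 518 and 515 CPM against 465 and 457 CPM (log2 difference 0.16, SE 0.05, adjusted p = 0.00559, edgeR), a call that ended in 3 alternative settings. Its S copy krt8.S was lower, at 157 and 155 CPM against 339 and 342 CPM, so that the L copy made 57.8% and 57.2% of their joint counts in ectoderm and 76.7% and 76.8% in marginal zone. The row krt16.S was read mainly in marginal zone, with 115 counts against 3 in ectoderm, a ratio of 51.9 (exact 95% counting interval 17.3 to 255). The row krt60.L, with 21 counts in ectoderm and none in control marginal zone, was at least 5.17-fold higher in ectoderm, with the floor set at 3 counts for a whole group. Such a value leaves out the counting error of the group that was read.

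All 8 uroplakin rows were lower in the marginal zone, by 0.66 to 1.22 on the log2 scale, against 26.3% of all genes called lower. The upk3a.L row stood at 885 and 827 CPM in ectoderm and at 454 and 455 CPM in marginal zone. Of 17 tested desmosome rows 5 were higher and 9 lower in marginal zone, against 26.5% and 26.3% of all genes. The jup.L row stood at 423 and 422 CPM against 320 and 301 CPM (-0.44, SE 0.05), dsp.L at 278 and 262 CPM against 219 and 231 CPM, and dsg2.L did not pass the test (-0.02, adjusted p = 0.807, edgeR). Larger differences were those of pkp1.L (-1.02), dsg2.S (-0.61), pkp3.S (0.84) and dsc3.L (0.56). Among the rows called higher, the calls of dsc3.L, pkp4-b and pkp4.S ended in 4, 4 and 5 alternatives. Among those called lower, the calls of pkp1.L, dsp.S and jup.S ended in 2, 3 and 6. The plaque protein periplakin was low in both tissues and lower in marginal zone, ppl.L at 3.18 and 2.22 CPM against 0.0773 and 0.452 CPM. The related evpl.L (envoplakin) stood at 0.96 and 1.37 CPM in ectoderm and at 3.09 and 3.49 CPM in marginal zone. The lectin gene itln1.L had 14 counts in control ectoderm and none in any marginal zone sample. With the floor of 3 counts it was at least 3.45-fold higher in control ectoderm than in control marginal zone.

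**Figure D2:**
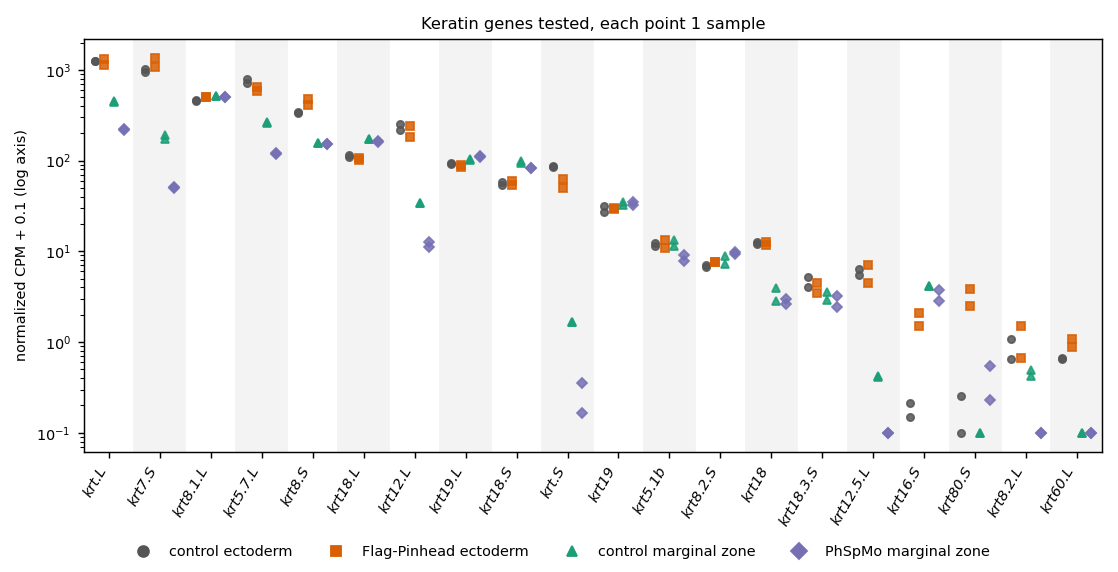
Normalized CPM plus 0.1 (log axis) of the 20 keratin rows tested, 1 point per sample, with colours and shapes for the 4 groups and rows ordered by mean level, which is not corrected for gene length. The PhSpMo points lie below the control marginal zone points for krt.L, krt7.S, krt5.7.L, krt12.L and krt.S and beside them for krt8.1.L, krt8.S and krt19.L.

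Epidermal keratins and uroplakins fell with PhSpMo in marginal zone explants. Of the 48 tested members 20 fell and none rose (edgeR), against 10.5% falling and 8.22% rising among all genes tested, 18.7% in all. Among the 48, itln1.L and krt60.L had no count in any marginal zone sample, so they could not be called here. By 2-fold or more 9 members fell, against 2.27% of all genes. At an unadjusted p under 0.05, 23 members were lower and 1, krt80.S, higher, a count that was not made over all genes. DESeq2 called 16 members lower and 0 higher, against 1565 and 812 of all genes. The median log2 fold change of the members was -0.23, against 0.00 over all genes. Fewer members, and fewer of all genes, were called falling without control marginal zone replicate 2. Levels of the mesoderm markers (1950 and 2020 CPM with PhSpMo, unscaled and summed) and of the endoderm markers (545 and 553 CPM) moved the same way. The goblet and outer layer markers went from 9.64 and 11.6 CPM to 3.86 and 5.20 CPM, with 4 of 7 rows at 0 under PhSpMo. The sum of the ionocyte markers went the other way, from 183 and 188 CPM to 264 and 269 CPM. Of 9 tested ionocyte rows, however, 2 rose and 1 fell, with a median log2 fold change of 0.07. The part of these cell types in the result was not tested.

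Of 20 tested keratins 8 fell, against 10.5% of all genes. The krt7.S row went from 173 and 190 CPM to 50.6 and 49.6 CPM, a change of -1.86 on the log2 scale (SE 0.10), with an edgeR adjusted p of 5.8e-13. Its L copy krt5.7.L went from 260 and 265 CPM to 121 and 119 CPM (-1.13, SE 0.08), and made 70.5% and 70.6% of the joint counts of the pair with PhSpMo. The type I gene krt.L went from 442 and 459 CPM to 216 and 224 CPM (-1.03, SE 0.07), and krt.S from 1.55 and 1.55 CPM to 0.258 and 0.0638 CPM. The krt12.L row went from 33.6 and 33.8 CPM to 11.0 and 12.6 CPM (-1.52, SE 0.15, adjusted p = 3.78e-08, edgeR), with an adjusted p of 0.0524 under the robust estimate of spread. For these 5 rows both PhSpMo values, which count as 1 sample, lay below the controls, and how often this held over all genes was not counted.

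The other 3 keratin rows that fell rest on few reads or an old name. The rows krt12.5.L and krt8.2.L had 9 and 10 counts in control marginal zone and none with PhSpMo. With the floor of 3 counts these rows were at least 3.12-fold and 3.47-fold lower. Their calls ended when any 1 marginal zone sample was left out, with adjusted p of up to 0.0741 and 0.0993 (edgeR). The row krt5.1b, listed by RefSeq under a splicing factor, changed by -0.55 on the log2 scale (SE 0.17), with an adjusted p of 0.0249 by edgeR and of up to 0.237 in the 4 alternatives that ended the call.

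The krt8 and krt18 rows other than krt8.2.L, and both krt19 rows, did not pass the test with PhSpMo. The values of krt8.1.L were 518 and 515 CPM in the controls and 500 and 497 CPM with PhSpMo (log2 fold change -0.05, SE 0.06, adjusted p = 0.615, edgeR), and those of krt8.S were 157 and 155 CPM against 153 and 150 CPM (-0.04, SE 0.08). The krt18.L and krt18.S rows had log2 fold changes of -0.10 (SE 0.07) and -0.20 (SE 0.08), with adjusted p of 0.383 and 0.0842. The krt18.S row was called lower in 6 alternatives, with adjusted p from 0.0128 to 0.0294 (edgeR). Some of these count PhSpMo as 2 samples, which are not read as replicates here. The krt19.L row differed by 0.10 on that scale (SE 0.07). The row krt80.S, with 9 counts under PhSpMo and none in the controls, was at least 2.88-fold higher with the floor of 3 counts (adjusted p = 0.0516, edgeR). It was called higher in 9 alternatives, some of which count PhSpMo as 2 samples.

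All 8 uroplakin rows fell with PhSpMo, 7 of them modestly, against 10.5% of all genes. The exception was upk3b.L, which encodes a uroplakin of the UPK3 family and went from 37.0 and 41.6 CPM to 13.6 and 10.7 CPM (log2 change -1.70, SE 0.11, edgeR adjusted p = 1.88e-11). The others ranged from -0.24 for upk1a.L, whose adjusted p rose to between 0.0631 and 0.188 in 4 alternatives, to -0.57 for upk2.S, which went from 34.4 and 34.2 CPM to 23.2 and 23.0 CPM. The upk3a.L row went from 454 and 455 CPM to 353 and 370 CPM (-0.33, SE 0.07). Both PhSpMo values, which count as 1 sample, lay below the controls in all 8 rows. How often this held over all genes was not counted. Without control marginal zone replicate 2, upk1b.S, upk2.L and upk1a.L did not pass (adjusted p = 0.0781, 0.0581 and 0.188, edgeR).

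Of 17 tested desmosome rows 4 fell with PhSpMo, against 10.5% of all genes. The plakophilin row pkp3.S fell from 17.5 and 16.1 CPM to 6.91 and 8.99 CPM (-1.07, SE 0.18, adjusted p = 8.21e-05, edgeR). The row named pkp3 alone, which matches both copies in RefSeq, held 151 and 151 CPM against 148 and 151 CPM. The desmoplakin row dsp.L fell from 219 and 231 CPM to 167 and 166 CPM (-0.43, SE 0.07, adjusted p = 4.58e-05, edgeR). The dsp.S row stood at 320 and 312 CPM against 284 and 284 CPM (-0.15, adjusted p = 0.122). It was called lower in 6 alternatives (adjusted p = 0.00637 to 0.0443, edgeR), some of which count PhSpMo as 2 samples. The fall of dsg2.L (-0.27, SE 0.08) and that of jup.L (-0.22, SE 0.06) passed, with adjusted p of 0.0152 and 0.0168 that rose to as much as 0.113 and 0.2 in alternatives. The rows jup.S, pkp2.L, pkp4.S, pkp4-b, dsg2.S and both dsc3 copies did not pass. The other krt-prefixed genes, krtcap2.L and krtcap3.L, encode keratinocyte-associated proteins that are not keratins, and had log2 fold changes of -0.20 and 0.06 (adjusted p = 0.728 and 0.648).

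**Figure D3:**
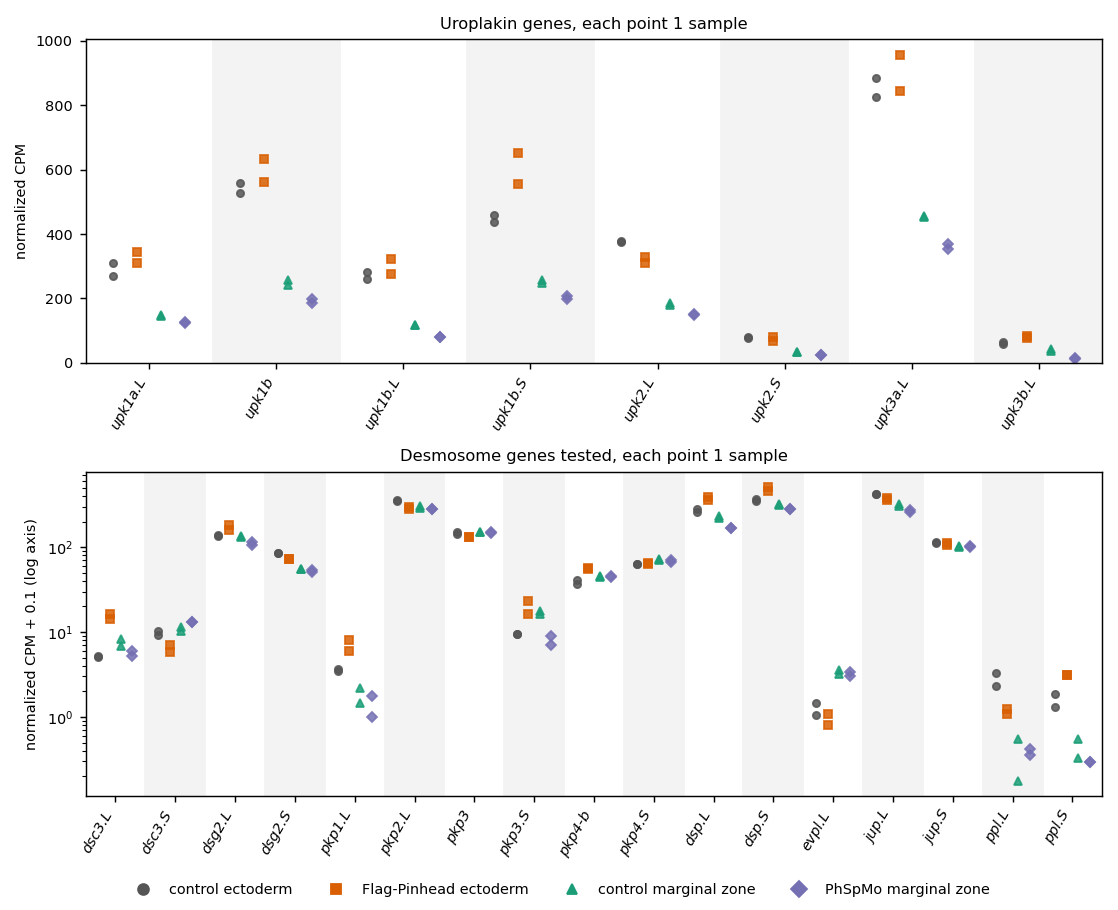
Normalized CPM of the 8 uroplakin rows (upper panel, linear axis from 0) and normalized CPM plus 0.1 of the 17 desmosome rows tested (lower panel, log axis), 1 point per sample in the 4 groups. In every uroplakin row the PhSpMo points lie below the control marginal zone points, and those lie below the control ectoderm points, while among desmosome rows dsc3.L and dsc3.S part with Flag-Pinhead RNA.

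With Flag-Pinhead RNA the members of ectoderm explants moved in both directions. Of the 48 tested members 18 rose and 8 fell (edgeR), against 15.5% rising and 11.9% falling among all genes tested, 27.4% in all, and 22 did not pass. By 2-fold or more 7 rose and 1 fell, against 7.23% and 0.877% of all genes. The median log2 fold change of the members was 0.10, against 0.00 over all genes. The split depends on scaling: with library totals, which shift the median of all genes by -0.113 on the log2 scale, 14 rose and 15 fell. Among all genes 2639 rose and 4981 fell with library totals, against 3441 and 2647 in the reported fit. Fewer members, and fewer of all genes, were called falling without control ectoderm replicate 2. In the same samples the mesoderm markers went from 32.8 and 34.9 CPM to 745 and 763 CPM, unscaled and summed. Neural ectoderm markers went from 1030 and 1050 CPM to 1620 and 1530 CPM, with 9 of 15 tested rows rising and 1 falling. Goblet and outer layer markers, a list that holds itln1.L itself, went from 43.4 and 43.9 CPM to 68.1 and 69.3 CPM. Of their 7 rows 4 were tested, of which 2 rose and 1 fell. The part of these cell types in the results was not tested.

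Of 20 tested keratins 4 rose and 2 fell, against 15.5% rising and 11.9% falling among all genes. These counts are not read as a trait of the keratins. The krt.L row stood at 1328 and 1145 CPM with the RNA against 1265 and 1253 CPM (-0.03, SE 0.06, adjusted p = 0.787, edgeR). The krt12.L row, at 240 and 181 CPM against 216 and 256 CPM, did not pass either. With library totals both were called lower (-0.143 and -0.279). Without Flag-Pinhead replicate 1 their log2 fold changes were -0.135 and -0.379. Both copies of krt18 did not pass, krt18.L at 101 and 108 CPM against 109 and 115 CPM. The krt8.S row rose from 339 and 342 CPM to 483 and 407 CPM (0.39, SE 0.06, adjusted p = 1.73e-05, edgeR), and krt.S fell from 85.2 and 88.2 CPM to 49.2 and 63.3 CPM (-0.62, SE 0.09).

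The largest rises were those of genes barely read in control ectoderm. The krt80.S row had 3 counts in control ectoderm and 88 with the RNA, a ratio of 35.5 (counting interval 11.8 to 175), and krt16.S had 3 and 48, a ratio of 19.4 (6.24 to 97.1). The lectin gene itln1.L rose from 0.253 and 0.513 CPM to 6.06 and 5.10 CPM (log2 change 3.87, SE 0.42, edgeR adjusted p = 6.09e-08). The rows krt80.S and itln1.L passed the filter on low counts only through the Flag-Pinhead samples. Their place among the members that rose is therefore not independent of that filter. Among desmosome genes dsc3.L rose from 5.0 and 5.19 CPM to 16.0 and 14.2 CPM (1.57, SE 0.16). The plakophilins pkp3.S and pkp1.L rose from 9.35 and 9.35 CPM to 23.2 and 16.1 CPM and from 3.33 and 3.59 CPM to 8.01 and 5.88 CPM. Both desmoplakin copies rose, dsp.L from 278 and 262 CPM to 392 and 360 CPM (0.48, SE 0.06) and dsp.S from 365 and 350 CPM to 513 and 460 CPM (0.44, SE 0.05).

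Other plaque and surface genes moved in both directions. The ppl rows, read at no more than 3.18 CPM, changed by -1.36 (ppl.L, SE 0.41) and 1.04 (ppl.S, SE 0.36) on the log2 scale. Their calls ended in 3 and 5 alternatives. The plakophilin row pkp4-b rose from 36.8 and 40.6 CPM to 56.6 and 54.9 CPM (0.53, SE 0.08). The pkp2.L row fell from 363 and 353 CPM to 293 and 281 CPM (-0.32, SE 0.05, adjusted p = 2.53e-05, edgeR) and jup.L from 423 and 422 CPM to 381 and 355 CPM (-0.20, SE 0.05). Of 8 uroplakins upk1b.S, upk3b.L and upk1a.L rose, upk2.L fell and 4 did not pass, against 15.5% rising and 11.9% falling among all genes. The upk1b.S row went from 437 and 458 CPM to 653 and 555 CPM (0.43, SE 0.06), upk3b.L from 60.1 and 64.6 CPM to 82.5 and 76.3 CPM (0.35, SE 0.07) and upk2.L from 377 and 378 CPM to 327 and 311 CPM (-0.24, SE 0.05). The call of upk1a.L, at 0.17 (adjusted p = 0.0403, edgeR), ended in 8 alternatives, and those of krtcap3.L (0.15) and krtcap2.L (0.77) in 10 and 8.

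Some L and S copies were called in opposite directions with Flag-Pinhead RNA. Of 15 pairs with both copies among the members, 4 had such calls: dsc3, dsg2, krt7 and ppl. The copies krt80.L and pkp2.S were not tested, so their pairs could not have such calls. The share of such pairs over all genes was not worked out, so this count has no background to be set against. The L copy of dsc3 made 35.1% and 33.8% of the joint counts in control ectoderm and 73.5% and 67.2% with the RNA, as dsc3.S fell from 9.25 and 10.2 CPM to 5.78 and 6.95 CPM (adjusted p = 0.00546, edgeR, and up to 0.0686 in 3 alternatives). For dsg2 the share of the L copy went from 62.0% and 60.8% to 71.5% and 68.6%, for krt7 from 43.1% and 43.1% to 32.7% and 35.1%, and for ppl from 72.4% and 55.7% to 24.1% and 27.1%. These pairs were chosen by their calls, so the shares are a description, and the difference between copies was not tested. The rise of krt7.S (0.28, adjusted p = 0.00309, edgeR) ended in 5 alternatives, with an adjusted p of 0.234 with DESeq2. The fall of dsg2.S (-0.24) ended in 1. The ppl rows, at no more than 3.18 CPM in any sample, lost their calls in 5 (ppl.S) and 3 (ppl.L) alternatives. Near-identical copies can share reads, and how such reads were counted is not given in the sources used here.

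Set side by side, 7 members rose with Flag-Pinhead RNA and fell with PhSpMo: krt7.S, upk1a.L, upk1b.S, upk3b.L, dsg2.L, pkp3.S and dsp.L. Among all genes tested 3.52% did so. The rises of krt7.S and upk1a.L ended in 5 and 8 alternatives, and the PhSpMo falls of dsg2.L, upk1a.L and upk1b.S in 4, 4 and 1. For pkp3.S the log2 fold changes were 1.07 and -1.07, for upk3b.L 0.35 and -1.70, and for dsp.L 0.48 and -0.43. Another 4 fell with both, krt.S, krt5.7.L, upk2.L and jup.L, as did 1.81% of all genes. Each of the calls of jup.L ended in 2 alternatives, and the PhSpMo call of upk2.L in 1. A further 9 fell with PhSpMo and did not pass with the RNA, among them krt.L and krt12.L, against 5.12% of all genes.

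**Figure D4:**
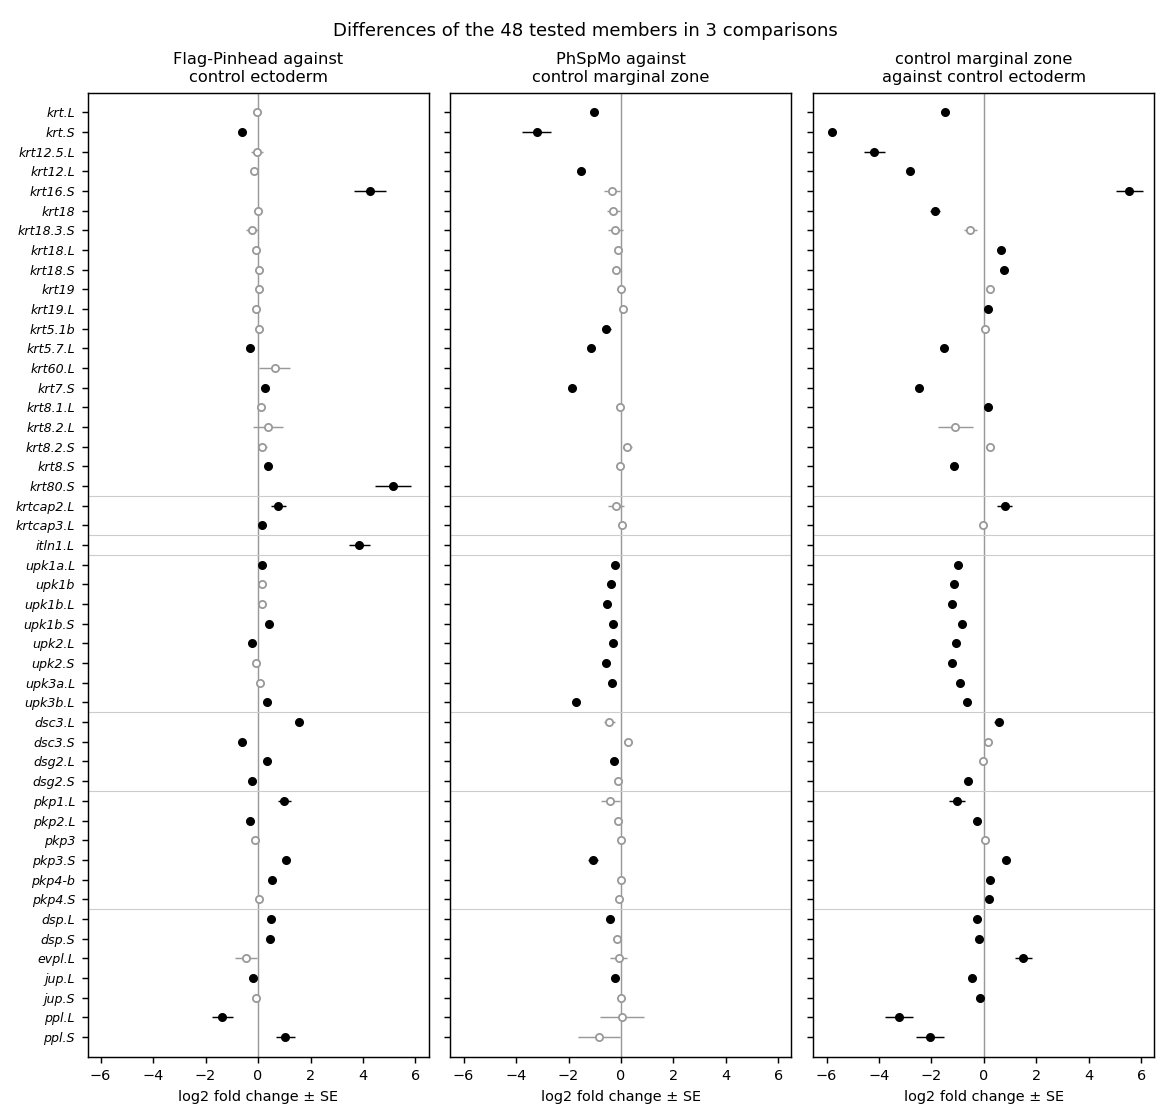
Log2 fold change with SE (x axis) of the 48 tested members in 3 comparisons, with filled points for adjusted p under 0.05 and open points for the rest, and no point where a group had no count. Grey lines part the keratins, other krt-prefixed genes, intelectin, uroplakins, desmosomal cadherins, plakophilins and plaque proteins, and all 8 uroplakin points lie left of 0 in the PhSpMo and tissue panels.

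The 7 members that did not pass the filter on low counts were krt222.S, krt23.L, krt2l.L, krt59.L, krt78.2.L, krt80.L and pkp2.S, each under 1 CPM in every sample. Of these, krt23.L had 11 counts in control marginal zone and none with PhSpMo, and krt78.2.L had 1 count in control ectoderm and 12 with Flag-Pinhead RNA, a ratio of 14.5 (counting interval 2.15 to 621).

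Transcription factors of embryonic epidermis were followed as a list. Of 31 tested rows in a list of epidermal regulators 18 fell and 5 rose, with a median log2 fold change of -0.53, and with PhSpMo 22 fell, with a median of -0.56. The shares over all genes given above were 11.9% falling and 15.5% rising with the RNA and 10.5% falling with PhSpMo. The AP-2 gene tfap2a.L went from 539 and 529 CPM to 209 and 208 CPM with the RNA, and from 371 and 370 CPM to 301 and 286 CPM with PhSpMo. The zinc finger gene gata2.S went from 118 and 114 CPM to 30.2 and 30.0 CPM, and from 112 and 109 CPM to 36.0 and 33.3 CPM. The grainyhead-like gene grhl3.S fell in both: its log2 changes were -0.57 (SE 0.06) and -0.80 (SE 0.07). In the marginal zone controls 15 of these rows were lower and 7 higher than in ectoderm controls, against 26.3% and 26.5% of all genes.

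Of 32 tested rows of tight and adherens junction genes 3 rose and 10 fell with Flag-Pinhead RNA, and 1 rose and 7 fell with PhSpMo, with medians of -0.02 and -0.09. Among all genes 15.5% rose and 11.9% fell with the RNA, and 8.22% rose and 10.5% fell with PhSpMo. The claudin row cldn4.S went from 599 and 629 CPM to 417 and 383 CPM with the RNA and from 248 and 253 CPM to 135 and 140 CPM with PhSpMo. The E-cadherin row cdh1.S did not pass with the RNA (0.10, adjusted p = 0.305) and fell with PhSpMo from 126 and 140 CPM to 74.5 and 82.1 CPM (-0.76, SE 0.09). Of 20 tested rows of other intermediate filament and cytolinker genes plec.S (plectin) rose and lmnb2.S (a lamin) fell with the RNA, and plec.S and vim.L (vimentin) fell with PhSpMo, vim.L from 24.9 and 24.3 CPM to 15.3 and 17.2 CPM.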

How the data were processed

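Messenger RNA of 8 explant samples in 4 groups was sequenced, and groups were taken from the titles. The submitters' processing notes name CASAVA 1.8, HISAT2, SAMtools and HTSeq; the build, strand setting and handling of shared reads were not given in the sources used here. What the authors deposited is a table of raw counts, with 16 columns that come as 2 per sample and were summed. A typing slip in 2 column names was resolved to control marginal zone replicate 1, which otherwise had none. Of 24313 LOC identifiers 11186 were given a symbol of the RefSeq table (X. laevis v10.1).

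The 2 PhSpMo samples were summed as 1 unit, leaving 7 units and 3 residual degrees of freedom, with the spread of the single unit taken to equal that of the rest. Values of single PhSpMo samples use the TMM factor of that unit. Tests used edgeR 4.0.16 (R 4.3.3): filterByExpr at its minimum of 10 counts, TMM factors, 1 mean per group and quasi-likelihood F tests, adjusted over all 22241 genes at 0.05. SE is the log2 fold change over the square root of F. DESeq2 1.42.0 and other scalings, filters, units and left-out samples were tried as alternatives, and the fit was tested on simulated data. Marker and division sums are CPM of the library total. Counting intervals are exact 95% binomial intervals and cover counting error only, since PCR copies are not independent molecules. Floors set a group with no count to 3 counts and take the count of the other group as exact. A fold given as at least a value is therefore not a 95% limit.

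The members, lists and naming rule were chosen with earlier results of these data known. Named members are, for each class, the 6 with the highest level, and for each comparison the 8 higher and 8 lower with the largest change, with members called in both treatments and L or S partners. Of each other list up to 4 rows with the lowest p qualify. Numbers given in the text are a part of these, and 1 row of the regulator list is not reported here.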

Additional observations from a re-analysis of the deposited data

How the results depend on the processing

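Where a called member was still tested, its fold change kept its sign in all of the 17 alternatives, but 27 of 84 member calls ended in at least 1. Calls lost because an alternative did not test the row are not among these 27. With the 2 groups of each comparison fitted alone, 25 members rather than 27 were lower in control marginal zone, and no tissue call ended among rows still tested. With library totals in place of TMM, 15 members fell and 14 rose with Flag-Pinhead RNA, rather than 8 and 18. Of all genes 4981 fell and 2639 rose with library totals, rather than 2647 and 3441. The count of members that rose with PhSpMo, 0 in the reported fit, was 1 with library totals, without the low count filter, with the robust spread, with 8 libraries as labelled or with PhSpMo columns summed by last digit, and with the replicate block; that member was krt80.S. With DESeq2, 6 members rather than 11 were higher in control marginal zone, and 4510 rather than 5889 of all genes. Leaving out 1 sample at a time gave 13 to 20 rising and 5 to 9 falling members for Flag-Pinhead RNA, 0 to 1 and 13 to 22 for PhSpMo, and 5 to 12 higher and 24 to 27 lower for marginal zone; the fewest falling members were 5 without control ectoderm replicate 2 and 13 without control marginal zone replicate 2, and the fewest higher ones 5 without the latter and 6 without control ectoderm replicate 1. Counts over all genes also changed between these fits. The cause was not tested. Deviations of same-numbered samples correlated by -0.0107 over genes in ectoderm and -0.0158 in marginal zone. The ectoderm value gives no sign that the numbers pair the samples, but does not exclude it. The marginal zone value cannot decide this, since the PhSpMo samples as labelled differ by no more than columns of 1 sample and may be crossed. A replicate block, fitted to the 8 libraries as labelled, gave 18 rising and 8 falling members for Flag-Pinhead RNA, against 3432 and 2748 of all genes. For marginal zone 8 members were higher and 26 lower, against 5187 and 5038 of all genes. This fit counts the 2 PhSpMo samples as replicates, so its PhSpMo counts of 1 rising and 22 falling members are not read as a result. Genes under 1 CPM rest on few counts.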

Other observations

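A further epidermal keratin row stands outside the symbol rule and was chosen after its values were seen. In the counts table xk81a1.L carries an old name that RefSeq lists under krt12.4.L. It stood at 119 and 110 CPM in control ectoderm, 185 and 143 CPM with Flag-Pinhead RNA, 16.1 and 23.9 CPM in control marginal zone and 7.75 and 7.78 CPM with PhSpMo. Its log2 fold change was 0.52 (SE 0.10, adjusted p = 0.000138, edgeR) with the RNA and -1.38 (SE 0.18, adjusted p = 3.21e-06) with PhSpMo. The desmosome-associated membrane protein gene perp.S, also chosen after its values were seen, stood at 128 and 119 CPM in control ectoderm and 120 and 105 CPM with the RNA. It went from 87.1 and 90.6 CPM to 73.3 and 73.5 CPM with PhSpMo (-0.28, SE 0.08, adjusted p = 0.018, edgeR).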
